A study of Mus musculus with 2 samples.

Results

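Blood endothelial cells, which line the blood vessels, were sought in dissociated squamous tumours of mouse back skin by the transcripts that mark them. A barcode was kept with at least 500 genes, at most 15% mitochondrial UMIs and at least 1000 UMIs (unique molecular identifiers, which count captured transcripts). A kept barcode was a member when Pecam1, Cdh5, Egfl7, Emcn and Flt1 together gave at least 10 UMIs per 10000 and at least 5 UMIs, and when Rgs5, a gene of pericytes, stayed under 5 per 10000. The cells were thus selected on these values. The rule chose 398 of 28942 kept cells, out of 30298 barcodes in all, with 25 from Ctrl-D and 373 from Eed iKO-D. Levels of these genes, and of genes that go with them, are therefore a description and not a finding.

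Each group was 1 library of 3' single-cell RNA sequencing from tumours on the dorsal skin of 5-month-old mice. Ctrl-D mice were Eed flox/flox and received ethanol, then the carcinogen DMBA weekly. Eed iKO-D mice were K14CrERT2;Eed flox/flox and received hydroxyl-tamoxifen for 4 days from postnatal day 50, then the same DMBA. DMBA was given for at most 20 weeks in both groups. The floxed Eed allele was shared by both groups, and genotype and tamoxifen cannot be told apart. The keratin 14 promoter drives this Cre in the basal cells of squamous epithelium, and endothelial cells do not use that promoter. Eed belongs to PRC2, the Polycomb complex that methylates lysine 27 of histone H3 and holds genes silent. The labels call the samples epidermal cancer cells, but endothelial, mural, fibroblast and leukocyte transcripts were present as well. The number of animals behind a library was not given in the sources used here, and with 1 library per group no test was possible. Intervals are at 95% and cover counting error only, treating UMIs as independent although those of a cell are not.

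Endothelial cells in a growing tumour take several forms. Tip cells lead a sprout under VEGF signalling and carry Esm1, Apln and Angpt2, arterial cells carry gap junction and Notch genes, and postcapillary venules display selectins that let leukocytes roll and leave the blood. Transcription factors of the ETS family, Erg among them, hold the endothelial programme and bind DNA around a GGAA core. Lymphatic endothelial cells form separate vessels, share Pecam1 and Cdh5 with blood vessels, and are set apart by Prox1.

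Promoters of members' genes are shown because they carry the ETS-type motif CAGGAAG, for 2 genes that chose the cells, Egfl7 and Emcn, and 2 genes of the venule-like cells described further on, Ackr1 and Sele. The sequences are the 250 bases before the annotated start, from RefSeq on GRCm38.p6, read 5′ to 3′ on the gene's strand, with the motif on either strand (CAGGAAG or CTTCCTG) in capitals.

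Egfl7, chr2:26580833-26581082, plus strand: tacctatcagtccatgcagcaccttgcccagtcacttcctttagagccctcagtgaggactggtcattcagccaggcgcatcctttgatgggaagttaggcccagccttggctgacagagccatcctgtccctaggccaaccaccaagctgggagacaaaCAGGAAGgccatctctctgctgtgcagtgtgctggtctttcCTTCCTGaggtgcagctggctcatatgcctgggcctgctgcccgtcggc
Emcn, chr3:137340828-137341077, plus strand: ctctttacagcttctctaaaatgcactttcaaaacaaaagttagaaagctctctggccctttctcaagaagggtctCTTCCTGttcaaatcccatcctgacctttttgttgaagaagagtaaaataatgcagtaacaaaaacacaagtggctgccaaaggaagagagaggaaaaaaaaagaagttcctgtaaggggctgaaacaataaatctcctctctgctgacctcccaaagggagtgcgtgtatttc
Ackr1, chr1:173333504-173333753, minus strand: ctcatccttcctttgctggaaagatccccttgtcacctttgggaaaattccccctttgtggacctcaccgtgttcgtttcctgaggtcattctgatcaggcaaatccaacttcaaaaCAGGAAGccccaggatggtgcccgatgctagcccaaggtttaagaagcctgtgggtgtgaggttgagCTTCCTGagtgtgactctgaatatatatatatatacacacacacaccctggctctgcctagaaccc
Sele, chr1:164047984-164048233, plus strand: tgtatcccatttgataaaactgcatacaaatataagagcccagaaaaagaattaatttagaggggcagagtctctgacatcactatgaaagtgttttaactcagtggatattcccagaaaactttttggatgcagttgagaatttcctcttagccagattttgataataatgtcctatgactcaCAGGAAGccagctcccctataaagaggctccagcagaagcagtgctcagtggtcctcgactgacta

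The motif began 90 and 49 bases before the start of Egfl7, 174 before that of Emcn, 133 and 66 before that of Ackr1 and 66 before that of Sele. Of 13 genes looked up, 8 had a window and these 4 held the motif. Egfl7, a secreted protein of endothelial cells, has 3 annotated windows, of which 1 is shown. Among all 32851 windows of this length, 10.8% held the motif. The list counts are per gene, with a gene counted if any of its windows held the motif, so they are not like that share. The motif was found for 5 of 12 pan-endothelial genes with a window (Cd34, Egfl7, Emcn, Erg and Robo4) and 3 of 9 venous genes (Ackr1, Lrg1 and Sele). It was also found for 2 of 13 tip cell genes (Apln and Kcne3), 2 of 13 arterial genes, 2 of 10 capillary genes and 0 of 8 lymphatic genes. These are matches of letters and not sites of binding.

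The members made up 0.335% of kept cells in Ctrl-D (interval 0.217 to 0.494%) and 1.74% in Eed iKO-D (1.57 to 1.92%). Both shares depend on how the tumours were dissociated and on which barcodes passed, and the comparison was not tested. Members of Ctrl-D held a median of 7789 UMIs (2712 to 42084) against 13283 for all kept cells of that library, and those of Eed iKO-D 13470 (1348 to 102350) against 3192. Summed over members, Ctrl-D gave 255439 UMIs and Eed iKO-D 6935564, of library totals of 120500892 and 289511009. The libraries also differed in make-up. Ribosomal protein genes took 19.7% of the Ctrl-D members' UMIs and 9.19% of the Eed iKO-D members', mitochondrial genes 1.35% and 3.19%, and Gm42418, AY036118, Camk1d, Cmss1 and Lars2, which collect ribosomal RNA-like reads, 1.53% and 10.5%. No member barcode occurred in both libraries, although 49 barcodes in all did. Eed itself stood at 52.6 CPM (counts scaled to a total of 1e6 UMIs) in epithelial cells of Ctrl-D (interval 51.0 to 54.2) and 43.2 in those of Eed iKO-D (42.2 to 44.2). These 3' counts need not cover the deleted part and so check the labels only weakly.

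The label held for most members but not for all. Clustering all 398 members gave 8 sub-clusters, of which 4 held 252 cells and were led by vessel or cycling genes or stayed unnamed (16 cells of Ctrl-D and 236 of Eed iKO-D). These were not free of other lineages. In sub-cluster 5, 3 of 10 leukocyte genes were at least 2-fold above the other members, and in sub-cluster 1, 2 of 8 pericyte genes were. Of their cells, 5 and 2 also met the rule for epithelial, fibroblast or leukocyte cells. The rule for mural cells (pericytes and smooth muscle) was left out of that count. It was met by 7 members of Eed iKO-D in all and 0 of Ctrl-D. The remaining 146 cells were led by genes of other types. Sub-cluster 4 (57 cells, all of Eed iKO-D) had a median of 3609 UMIs, 34.9% of them from Gm42418, and 7 of 10 epithelial genes at least 2-fold above the other members (4.18% of all genes). Sub-cluster 6 (39 cells, 5 of Ctrl-D) was led by keratin and myeloid genes such as Krt79, Il1b and S100a9, and sub-cluster 7 (30 cells, 1 of Ctrl-D) by collagen genes, with Col1a1 at 12591 CPM. In these 3 sub-clusters, 23, 24 and 25 cells also met the rule for epithelial, fibroblast or leukocyte cells. Sub-cluster 8 (20 cells, 3 of Ctrl-D) was lymphatic. Doublets were not removed, and whether these cells are doublets or carry free RNA was not tested.

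**Figure D1:**
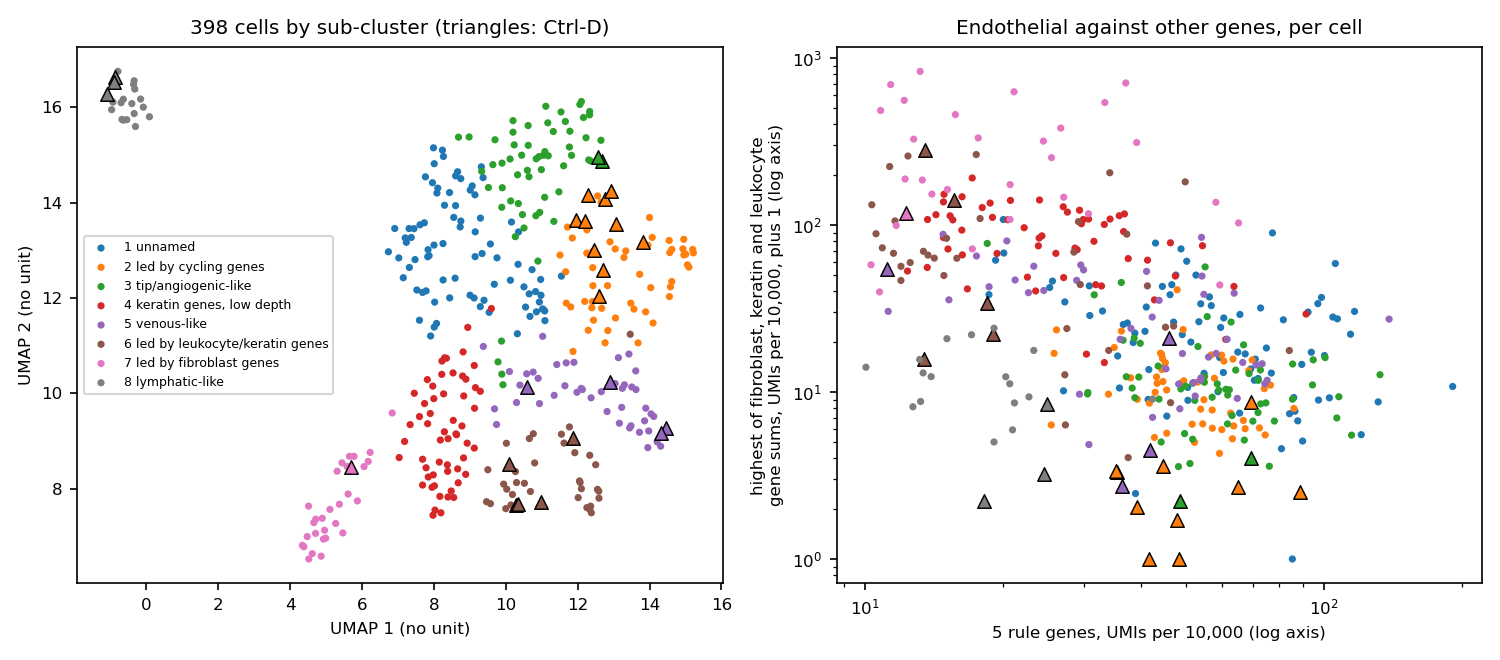
Left, the 398 members placed by an embedding in the plane (UMAP, no units) and coloured by sub-cluster, with triangles for the 25 Ctrl-D cells. Right, for each member, the summed rule genes per 10000 UMIs against the highest of the fibroblast, keratin and leukocyte gene sums per 10000 plus 1, both on log axes: sub-clusters 4, 6 and 7 lie toward high sums of other lineages, and sub-clusters 1, 2, 3 and 5 lie toward high sums of the rule genes.

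Close to the threshold the endothelial signal thinned out, though at different points for different genes. In Eed iKO-D, the 303 members at or above 20 per 10000 had Plvap, which forms the diaphragms of fenestrae and caveolae, at 754 CPM. The 55 members from 12 to 20 had 216 CPM and the 15 members from 10 to 12 had 25.7 CPM. Over the same bands, from the highest down, Kdr stood at 431, 188 and 51.4 CPM and Cldn5 at 380, 289 and 36.0 CPM. The lymphatic sub-cluster 8, over both libraries, had a median of 19.1 per 10000. The 24 cells just outside, from 8 to 10, had 2.11 CPM of Plvap with 3674 CPM of Krt14. In Ctrl-D, Plvap was 891 CPM in the 17 members at or above 20 and 0 in the other 8. A further 5 cells of Ctrl-D and 33 of Eed iKO-D met the endothelial limit but were left out for Rgs5. Such cells could enter the mural class used in the comparisons below, and how many did was not counted.

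Against 269 mural cells (pericytes and smooth muscle), 2660 fibroblasts, 13679 epithelial cells and 2119 leukocytes of the same Eed iKO-D library, 806 of 12370 genes were at least 2-fold higher in the members than in each of the 4 classes (6.52%). In the vessel sub-clusters alone, 856 of 10805 genes were (7.92%). Among all members, all 20 pan-endothelial genes were, with a median log2 ratio to the highest class of 4.90 against -0.44 over all genes tested. The list includes the rule genes Pecam1, Cdh5, Egfl7, Emcn and Flt1, whose levels were raised by the choice of cells. Kdr, the main VEGF receptor, stood at 394 CPM (379 to 409) and at 6.92 CPM in mural cells, the highest of the other classes. Cldn5, the claudin of endothelial tight junctions, stood at 360 CPM and at 5.36 CPM in mural cells. Flt1, a rule gene and a decoy for VEGF, reached 1607 CPM but also 431 CPM in mural cells. The mural values may include cells with endothelial transcripts that were left out of the members for Rgs5. Among genes with at least 100 CPM, the highest ratios after the lymphatic genes belonged to Aplnr, the apelin receptor (122 CPM, 170-fold over the highest class), Tacr1, the substance P receptor (214 CPM, 169-fold), Podxl (154 CPM, 115-fold) and Selp (580 CPM, 113-fold). The angiogenic genes Kcne3 (146 CPM, 112-fold), Esm1 (378 CPM, 94.1-fold) and Dll4 (156 CPM, 63.6-fold) were also among the 15 highest.

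The 4 vessel sub-clusters differed in which of these genes they carried. Sub-cluster values below are over the cells of both libraries, are set against the other members, and describe the genes that formed the clusters. Sub-cluster 3 (60 cells, 2 of Ctrl-D) was tip cell-like, with 12 of 18 tip and angiogenic genes and 11 of 17 arterial genes at least 2-fold above (3.47% of all genes). Esm1, a secreted proteoglycan of tip cells, stood at 1386 CPM there, at 241 in sub-cluster 1, 134 in sub-cluster 2 and 7.19 in sub-cluster 5. Angpt2, which loosens vessels through the Tie2 receptor, stood at 852 CPM, against 352, 107 and 86.3 in the same order. The arterial connexin genes Gja4 (223 CPM) and Gja5 (83.0 CPM) and the vasoconstrictor gene Edn1 (533 CPM) were high in the same cells. With 3000 variable genes, 44 of these 60 cells fell in a sub-cluster led by Esm1, Angpt2 and Kcne3 and 15 in another led by Gja5, so whether tip and arterial genes part depends on the clustering. Chga was first among its leading genes by fold, but its UMIs came from 5 cells of the sub-cluster.

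Sub-cluster 5 (47 cells, 4 of Ctrl-D) was venous-like, with 11 of 16 venous genes and 7 of 8 leukocyte adhesion genes at least 2-fold above (7.47% of all genes). Selp and Sele, the P- and E-selectins, stood at 4212 and 2604 CPM, and at 728 and 299 in sub-cluster 2, 30.0 and 2.93 in sub-cluster 1 and 12.6 and 5.19 in sub-cluster 3. Ackr1, the chemokine-transporting receptor of venules, was at 525 CPM there and had no UMI in sub-clusters 1 and 3. Vcam1 (701 CPM), Icam1 (1019 CPM) and the granulocyte factor gene Csf3 (1062 CPM) were high in the same cells, while Cldn5 was at 1.80 CPM and Kcne3 had no UMI. The T cell genes Grap2 and Icos were also among its leading genes. In 9 cells there was a UMI of Ptprc or of a T cell gene such as Cd3e, Icos or Grap2. Without them the values were 4731 CPM for Selp, 2848 for Sele and 596 for Ackr1. Cells with UMIs of other leukocyte genes only were kept.

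Sub-cluster 2 (62 cells, 10 of Ctrl-D) was led by cycling genes, of which 18 of 18 were at least 2-fold above (5.8% of all genes), with Mki67 at 382 CPM and Top2a at 467 CPM. It also held Rbp7, a fatty acid and retinol carrier of capillaries, at 188 CPM. At a higher clustering resolution, 30 of its cells, 1 of them of Ctrl-D, formed a cycling sub-cluster and 31, with 9 of Ctrl-D, an unnamed one.

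Sub-cluster 1 (83 cells, none of Ctrl-D) met no list and stays unnamed. Its leading genes were Ptn, a heparin-binding growth factor (361 CPM, in 38 cells), Mtus2, the histone deacetylase gene Hdac9 (1410 CPM, in 71 cells), Kcnj2, Col13a1 and Ednrb (615 CPM, in 63 cells), an endothelin receptor. Flt1 was higher there (3072 CPM) than in any other sub-cluster, and 6 of 18 tip genes were at least 2-fold above the other members (6.5% of all genes), among them Kcne3 (268 CPM), Dll4 (282 CPM) and Ramp3 (212 CPM). Because no Ctrl-D cell fell in this sub-cluster, its genes and the library cannot be told apart. The grouping also depends on the clustering. At resolution 0.3, 81 of its cells and all 60 of sub-cluster 3 fell in 1 sub-cluster named for tip and angiogenic genes. That sub-cluster held 153 cells, 9 of them of Ctrl-D. With 3000 variable genes, 34, 27 and 17 of the 83 cells fell in separate sub-clusters.

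Sub-cluster 8 was lymphatic-like, with 9 of 9 lymphatic genes at least 2-fold above (14.1% of all genes). Of 4 melanocyte genes, 3 were at least 2-fold above as well, with the list at 282 CPM in sum. Ptgds was among the leading genes of this sub-cluster from 1 of its 20 cells. Prox1, which sets lymphatic identity, stood at 633 CPM and at 7.19 CPM or less in every other sub-cluster. Ccl21a (6380 CPM), Mmrn1 (2115 CPM), Lyve1 (1677 CPM) and Flt4, the VEGF-C receptor (712 CPM), were high, while Flt1, Nrp1 and Ackr1 had no UMI. These 20 cells passed the rule through genes that both vessel types share, so the members are not blood endothelial throughout.

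To count angiogenic cells without the effect of depth, each cell of Eed iKO-D was thinned to 2000 UMIs, which left out 10 of 373 members and 2743 of 13679 epithelial cells. Esm1 was found in 69 of 363 members (19.0%, interval 15.1 to 23.4%) and in 62 of 230 cells of the vessel sub-clusters (27.0%, 21.3 to 33.2%). Over 20 further draws of the thinning, the share was 17.9 to 23.7% of members and 22.2 to 29.1% of vessel cells. In mural cells, fibroblasts, epithelial cells and leukocytes, which should lack it, the share was 0.744%, 0.381%, 0.722% and 0.142%. Before thinning, 34.3% of members had an Esm1 UMI, at a median of 13470 UMIs. Angpt2 was found in 25.6% of members and 14.1% of mural cells, and in 1.40% or less of the other 3 classes. Apln was found in 13% of members (20.0% of vessel cells) and Kcne3 in 15.4% (20.4%), with 0 of 269 mural cells for both after thinning, and 5 and 2 of them before it. Selp was found in 19.3% of members and Sele in 18.7%, and Mki67 in 13.2% (15.2% of vessel cells). Cxcr4, a chemokine receptor of tip cells, was found in 12.7% of members but in 29.2% of leukocytes, so that its share in members was below that of another class. Among the 25 members of Ctrl-D, Esm1 was found in 1 (4.0%, interval 0.101 to 20.4%), Angpt2 in 3 and Plvap in 13.

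**Figure D2:**
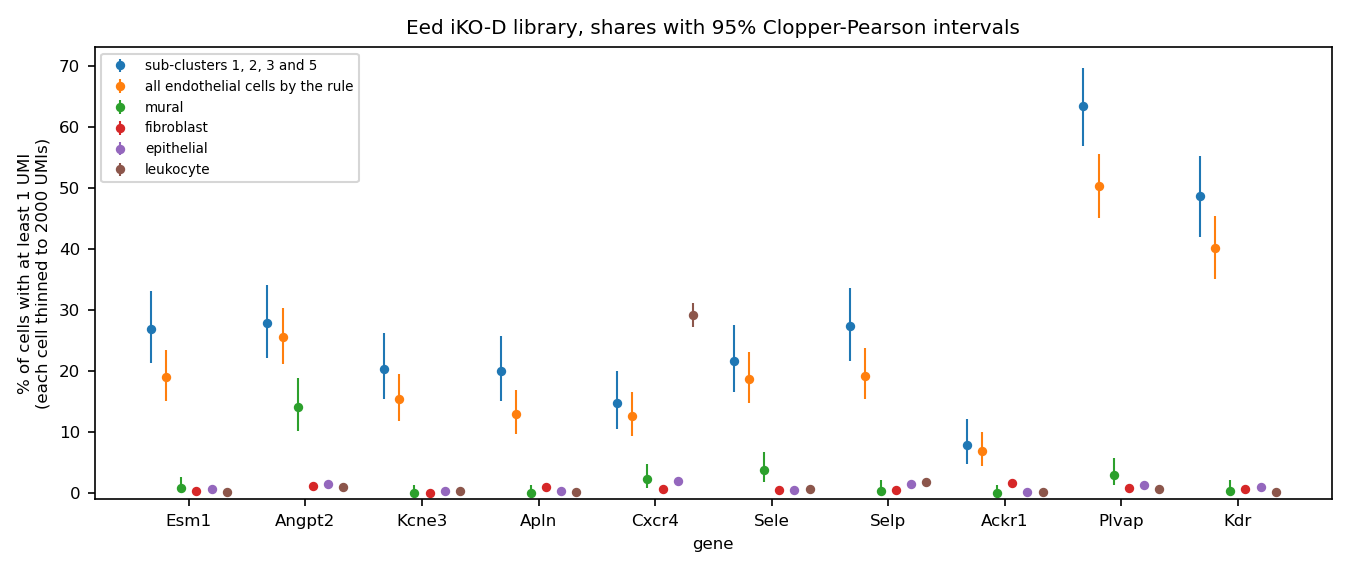
Share of cells (percent) of the Eed iKO-D library with at least 1 UMI of each of 10 genes after thinning to 2000 UMIs, in members, vessel sub-clusters and the 4 other classes, with exact Clopper-Pearson 95% intervals. The Esm1 share is 19.0% in members and below 1% in every other class, while Cxcr4 is found more often in leukocytes than in members.

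Within the vessel sub-clusters of Eed iKO-D, the 62 thinned cells with an Esm1 UMI were set against the 168 without. Which cells had an Esm1 UMI changed with the draw, more than the counting intervals cover, so each ratio is given with its range over 20 further draws. Of 17 tip and angiogenic genes, 6 were at least 2-fold higher in the Esm1-positive cells and 0 lower, where 5.2% of all genes were higher and 8.85% lower. Over the draws 5 to 10 were higher and 0 or 1 lower. Apln, the ligand of Aplnr, stood at 427 CPM (53 UMIs in 24 of 62 cells) against 80.4 CPM, a ratio of 5.32 (3.29 to 8.80) that was above all 20 further draws (2.10 to 4.66, median 3.25). Kcne3 had a ratio of 3.32 (draws 1.63 to 4.01), Angpt2 of 3.15 (2.42 to 4.78) and Cxcr4 of 2.48 (1.69 to 6.5). Gpihbp1, which carries lipoprotein lipase in capillaries, stood at 960 against 310 CPM, a ratio of 3.10 (draws 1.81 to 4.4). Kdr was 1.73 times higher (draws 1.13 to 2.16) and Flt1 1.23 times (1.03 to 1.70). Dll4, the Notch ligand of tip cells, had a ratio of 1.41 (interval 0.842 to 2.31), below every further draw (1.5 to 4.51, median 2.37), and of 3.57 (2.30 to 5.51) in the separate draw over all members. These genes were above 1 in 20 of 20 draws.

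Venous genes lay on the other side. Of 14 venous genes, 0 were at least 2-fold higher in Esm1-positive cells and 8 were lower, and of 7 leukocyte adhesion genes 5 were lower. Over all genes, 5.2% were higher and 8.85% lower. Selp stood at 145 against 1051 CPM, a ratio of 0.138 (0.0809 to 0.222), and Sele at 56.5 against 577 CPM, a ratio of 0.0978 (0.0388 to 0.205). Over the draws both ranged from 0, Selp up to 0.164 and Sele up to 0.107. Of the venous genes, 4 to 11 were lower and 0 to 2 higher over the draws. Ackr1 had 0 UMIs in the positive and 57 UMIs in the negative cells. Cd36, a fatty acid transporter of capillaries, stood at 24.2 against 181 CPM, a ratio of 0.133 (draws 0.114 to 0.818), opposite to Gpihbp1. The cycling gene Mki67 had a ratio of 1.07 and, over the draws, of 0.193 to 1.15 (median 0.642). In the separate draw over all members it was 0.125 (0.0149 to 0.470), with 2 against 68 UMIs. Esm1 was among the genes that formed the sub-clusters, so this contrast is not independent of them.

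**Figure D3:**
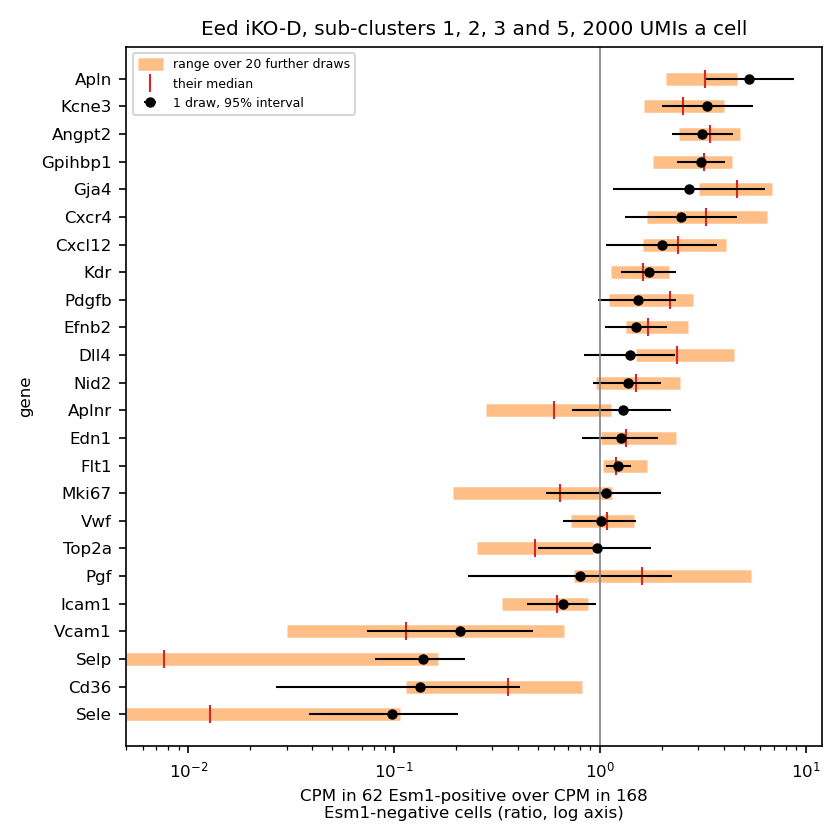
Ratio of summed CPM in 62 Esm1-positive over 168 Esm1-negative thinned cells of the Eed iKO-D vessel sub-clusters (log axis), with 95% conditional binomial intervals for 1 draw of the thinning, and bars and ticks for the range and median of 20 further draws, cut at 0.005. Apln, Kcne3 and Angpt2 lie above 1 and Selp, Sele and Vcam1 below it in every draw.

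VEGF receptors were mostly highest in the members and their ligands mostly in other classes. Of 8 receptors and co-receptors, 6 were at least 2-fold above each other class, against 6.52% of all genes. Flt1 is among them and was fixed by the rule; the others were Kdr, Flt4 (124 CPM), Nrp1 (434 CPM), Plxnd1 (370 CPM) and Ptprb (477 CPM). Of 5 ligands only Vegfc was (103 CPM against 46.3 in fibroblasts). Vegfa stood at 52.3 CPM in members and at 288 in epithelial cells, and Pgf at 56.7 in members and 69.7 in mural cells. Within the angiopoietin group 5 of 8 genes passed, with the receptor gene Tek at 115 CPM and Tie1 at 146 CPM, whereas the ligand Angpt1 stood at 3.89 CPM in members, 63.2 in fibroblasts and 54.0 in mural cells. Of the apelin and adrenomedullin genes 5 of 6 passed, including the receptor Calcrl (533 CPM) and its partner Ramp2 (253 CPM). The exception was Adm, at 56.1 CPM in members and 218 in fibroblasts.

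Notch genes were split. Notch4 (69.6 CPM), Dll1, Dll4, Hey1 and Mfng passed, 5 of 13 in all against 6.52% of all genes. Jag1, in contrast, was higher in epithelial cells (223 CPM) than in members (98.3 CPM). The Notch targets Heyl and Hey2 were highest in mural cells. Across the vessel sub-clusters, Dll4 stood at 282 and 273 CPM in sub-clusters 1 and 3 and at 7.19 CPM in sub-cluster 5. Hey1 had no UMI in sub-cluster 5.

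Among 22 endothelial transcription factors, 10 passed, including Erg (255 CPM, 53.3-fold over the highest class), Sox17 (52.9 CPM, 59.3-fold), Sox18 (150 CPM, 31.9-fold) and Tcf4 (3.70-fold). Of 13 junction genes 7 passed, with the rule genes Cdh5 and Pecam1 among them. Of 14 basement membrane genes only Nid2 and Hspg2 did, since Col4a1 stood at 4203 CPM in mural cells and Sparc at 9424 CPM in fibroblasts. No gene of the cycling (18), class I antigen presentation (10) or hypoxia and glycolysis (19) lists passed, beside 6.52% of all genes. Nos3, the endothelial nitric oxide synthase, was 39.0-fold over the highest class (95.9 CPM). The inflammatory chemokines Ccl2 and Cxcl1 were lower in members than in fibroblasts.

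Members of Eed iKO-D were then set against those of Ctrl-D. Of 12479 genes with 20 UMIs or more over both libraries, 1971 were at least 2-fold higher in Eed iKO-D (15.8%) and 2543 lower (20.4%). In the vessel sub-clusters alone, with 236 and 16 cells, the counts were 1902 (17.4%) and 2421 (22.2%) of 10912 genes. The count of each list is read against these shares, and the 25 Ctrl-D cells limit every value. Transcripts of other cell types moved with the library in both directions. In the vessel cells of Ctrl-D and Eed iKO-D, the summed epithelial list stood at 235 and 1522 CPM, the fibroblast list at 11.2 and 506, and the leukocyte list at 313 and 95.8, with 5 of 9 leukocyte genes lower. Over all members the melanocyte list stood at 618 and 104 CPM. Their part in the results below was not tested. The tip and angiogenic list had 8 of 18 genes higher and 0 lower, and the same counts in the vessel sub-clusters, with a median log2 ratio of 0.94 over all members against 0.00 over all genes.

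Esm1 had 9 UMIs in 2 Ctrl-D members (35.2 CPM) and 2622 UMIs in 128 Eed iKO-D members (378 CPM), a ratio of 10.7 (5.64 to 23.5). Insr, the insulin receptor, stood at 97.9 and 457 CPM, a ratio of 4.66 (3.15 to 7.22), and at 5.16 in the vessel sub-clusters. Kcne3 had 4 UMIs in Ctrl-D, a ratio of 9.29 (3.62 to 34.2). Angpt2 stood at 86.1 and 338 CPM, a ratio of 3.92 (2.58 to 6.27) that was 7.00 (3.8 to 14.6) in the vessel sub-clusters and 2.27 when each cell counted equally. The other 4 of the 8 were Adm (7.16, 1.97 to 59.4, from 2 UMIs in Ctrl-D), Trp53i11 (2.98, 1.98 to 4.71), Pgf (2.41, 1.10 to 6.61) and Unc5b (2.14, 1.24 to 4.03). The remaining 10 did not reach 2-fold. Among these, Apln stood at 149 CPM, from 38 UMIs in 4 Ctrl-D cells, and at 166 CPM, a ratio of 1.12 (0.808 to 1.59), and Pdgfb, which draws pericytes to vessels, had a ratio of 1.34 (0.976 to 1.88).

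The mix of sub-clusters moved with the library, since 10 of 16 Ctrl-D vessel cells lay in sub-cluster 2 and only 2 in sub-cluster 3. Within sub-cluster 2, the ratio of Esm1 was 2.08 (1.07 to 4.61) and that of Angpt2 1.46 (0.774 to 3.11), with 4 tip genes higher and 2 lower. This sub-cluster was itself mixed. At a higher clustering resolution, 1 of 30 cells in its cycling part and 9 of 31 in an unnamed part were of Ctrl-D. The part of the cell mix, the ribosomal RNA-like reads and the depth in the Esm1 ratio was otherwise not tested. The ratio was 10.8 when ribosomal, mitochondrial and ribosomal RNA-like genes were left out of the scaling.

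Of 20 pan-endothelial genes, 3 were at least 2-fold higher and 0 lower, both over all members and in the vessel sub-clusters. The 3 are near the share of all genes that were higher, 15.8% over all members and 17.4% in the vessel sub-clusters. Plvap stood at 638 and 674 CPM in Ctrl-D and Eed iKO-D, a ratio of 1.06 (0.903 to 1.24), and Kdr at 274 and 394 CPM, a ratio of 1.44 (1.13 to 1.85). Selp had a ratio of 1.17 (0.978 to 1.40) and Sele of 1.32 (1.03 to 1.72). Their ratios turned with the cells chosen, to 2.78 and 3.02 in sub-cluster 2 (10 Ctrl-D cells). They were 0.616 and 0.686 in sub-clusters 3 and 5 (2 and 4 Ctrl-D cells). No venous gene was 2-fold higher and 2 of 16 were lower, Ch25h (0.221) and Ctsh, where 20.4% of all genes were lower. In the vessel sub-clusters 1 was higher (Cpe) and 3 lower (Ackr1, Csf2rb and Ch25h), where 22.2% of all genes were lower.

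Of 10 genes of class I antigen presentation, 6 were at least 2-fold lower in Eed iKO-D and 0 higher, beside 20.4% and 15.8% of all genes. Their median log2 ratio was -1.43. Class II genes, which mark antigen-presenting leukocytes, were lower with them, 6 of 7, with a summed level of 1077 and 248 CPM, and the leukocyte list stood at 857 and 320 CPM. H2-K1, a class I heavy chain, stood at 1049 and 243 CPM, a ratio of 0.232 (0.204 to 0.265), and at 0.212 in the vessel sub-clusters, where 15 of 16 Ctrl-D cells had a UMI. Its ratio was 0.220 in sub-cluster 2 alone (10 Ctrl-D cells) and 0.217 in sub-clusters 3 and 5 (2 and 4 Ctrl-D cells). The mix of cells within these sub-clusters was not matched between the libraries. Without the members that also met the epithelial, fibroblast or leukocyte rule, the ratio of H2-K1 was 0.248. H2-D1 stood at 1914 and 505 CPM, a ratio of 0.264 (0.240 to 0.291), and B2m, the light chain, at 1609 and 551 CPM, a ratio of 0.343 (0.309 to 0.380). The values of single members of the list varied, with Tapbp at 1.21 (0.683 to 2.35). Ribosomal protein genes were lower in the same library, as given above, and with these, mitochondrial and ribosomal RNA-like genes left out of the scaling the ratio of H2-K1 was 0.233. Class I heavy chain genes are alike in sequence, so that reads could be split between H2-K1 and H2-D1.

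**Figure D4:**
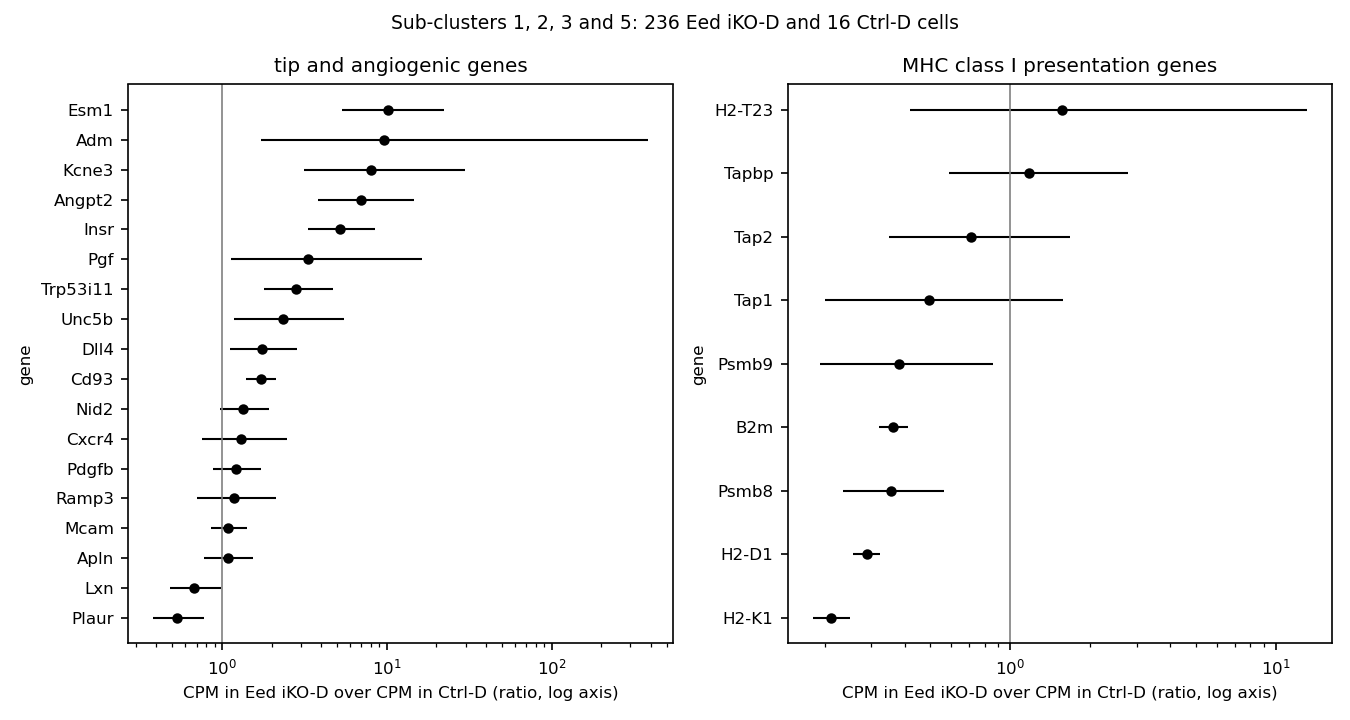
Ratio of CPM in Eed iKO-D over Ctrl-D (log axis) in the vessel sub-clusters, 236 against 16 cells, for the tip and angiogenic list and the class I antigen presentation list, with 95% conditional binomial intervals. Esm1, Angpt2 and Insr lie above 2, Apln near 1, and H2-K1, H2-D1 and B2m below 1.

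The largest differences in the vessel sub-clusters included genes with no UMI in Ctrl-D. Ednrb had 0 UMIs in Ctrl-D and 316 CPM in Eed iKO-D, at least 18.9-fold higher against a floor of 3 UMIs over the group, and Kcnj2 was at least 11.2-fold and Ptn at least 8.38-fold higher. These 3 are also leading genes of sub-cluster 1, which held no Ctrl-D cell. Hdac9, also a leading gene of sub-cluster 1, had 4 UMIs in Ctrl-D, a ratio of 30.8 (12.0 to 113). Adamts9, a matrix protease, had 13 UMIs there, a ratio of 17.6 (10.3 to 33.1). Neat1, a nuclear RNA, was among the 8 highest. In the other direction, Gal had 118 UMIs in 2 Ctrl-D cells and none in Eed iKO-D, and Stmn2 stood at 520 CPM, from 11 Ctrl-D members, and 77.9 CPM, a ratio of 0.150 (0.119 to 0.190). Eln, which encodes elastin, had a ratio of 0.0762 (0.0522 to 0.113), from 3 Ctrl-D cells. Over all members, the lowest included Ptgds and the pigment cell genes Dct, Mlana and Pmel, from 1 or 2 Ctrl-D cells each, and the hair keratins Krt73 and Krt28, from 1.

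Of 17 BMP and TGF-beta genes, 5 were at least 2-fold higher in Eed iKO-D vessel cells and 4 lower, where 17.4% of all genes were higher and 22.2% lower. The 4 lower genes, a count near that share, were Gdf15 and the BMP targets Id1, Id2 and Id3. Id1 stood at 386 and 133 CPM, a ratio of 0.346 (0.270 to 0.450), and Id3 at 587 and 222 CPM, a ratio of 0.378 (0.309 to 0.467). The receptor genes Eng and Acvrl1 had ratios of 1.20 (0.977 to 1.49) and 1.12 (0.60 to 2.36). Of 20 endothelial transcription factors, 4 were higher (Erg, Fli1, Etv6 and Tcf4), near the share of all genes, and 1 was lower (Sox17). Erg had a ratio of 2.75 (1.79 to 4.45) and Sox17 of 0.390 (0.268 to 0.588). Of 18 cycling genes 4 were at least 2-fold higher in Eed iKO-D vessel cells, which is near the 17.4% of all genes, and the list's median log2 ratio was -0.29. Over all members 1 was higher and 3 lower, and Mki67 had a ratio of 3.47 (1.75 to 8.07) in the vessel cells and 1.63 (1.09 to 2.55) over all members. Of 14 immediate early and stress genes, which respond to dissociation, 3 were higher in the vessel cells (Fosb, Jun and Egr1) and 0 lower. The 3 are also near the share of all genes, and over all members none reached 2-fold.

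Eed stood at 62.6 CPM in Ctrl-D members (16 UMIs in 10 cells) and 43.1 CPM in Eed iKO-D members (299 UMIs in 153 cells), a ratio of 0.688 (0.417 to 1.22). In the vessel sub-clusters the ratio was 1.04 (0.520 to 2.45). Eed lies on chromosome 7 of mm10, from 89954654 to 89980983 on the minus strand. No difference was detectable at this depth. The catalytic subunit gene Ezh2 had a ratio of 0.953 (0.589 to 1.65) and Suz12 of 0.917 (0.620 to 1.41).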

How the data were processed

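Single-cell RNA was read in 1 library per group. The authors deposited raw UMI counts, as whole numbers, for 32285 genes on mm10. The Cell Ranger version is 2.1.0 per the labels' protocols, but 7.1.0 in the file headers, and the submitters' processing notes name 8.0. Members, gene lists and rules were chosen with earlier results of these data known.

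Cells were filtered as the report states, and doublets were not removed. Summed counts were scaled to CPM (1e6 UMIs in all). Members were clustered with scanpy 1.11.5 (1500 variable genes, 20 components, 15 neighbours, resolution 0.6). Mural cells, fibroblasts, epithelial cells and leukocytes were taken by fixed sums of marker genes. A gene was called at 2-fold, with at least 20 UMIs. Named genes were the 15 most enriched genes of at least 100 CPM, the 8 leading genes of each sub-cluster, the 8 extremes in each direction between libraries (on log2 of CPM plus 10) and members of the fixed lists. A few further ones were chosen after their values were seen. Intervals are exact (Poisson, Clopper-Pearson or conditional binomial, scipy 1.17.1). The ratios were tested on simulated data, drawn as independent UMIs from a pooled profile. That setting holds no differences between cells, so it cannot show how the intervals fare where UMIs gather in few cells. Alternatives changed the threshold, filters, fold, minimum, clustering, scaling and cells used.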

Additional observations from a re-analysis of the deposited data

How the results depend on the processing

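Ratios between libraries were followed under the alternatives for a chosen set of genes only. None that was at least 2-fold in the main run crossed 1 in an alternative where it was computed. Smaller ratios, such as those of Selp and Sele, were not counted in this way. A check stayed when a count was within 1.5-fold, or another value lay inside the main interval. For the main results 57 checks stayed and 32 moved, and for the other values 252 stayed and 84 moved. No paired analysis was possible because each group was 1 library, and for the same reason no replicate could be left out. The share of members in Eed iKO-D, 1.74%, was 1.41% with a threshold of 20 per 10000 and 1.97% with a UMI minimum of 2000. It was 1.40% without possible doublets, the cells that also met the epithelial, fibroblast or leukocyte rule. The 806 genes above each class were 519 at 3-fold and 508 with a minimum of 100 UMIs. Between libraries, the 1971 higher and 2543 lower genes were 3262 and 4098 at 1.5-fold, 839 and 941 at 3-fold, and 5955 and 6726 with no minimum. With a minimum of 50 UMIs 1240 were lower. With at least 20 UMIs in Ctrl-D or 700 in Eed iKO-D they were 491 and 542, in sub-cluster 2 alone 930 were lower, and in sub-clusters 3 and 5 alone 908 were higher. The share of Eed iKO-D members in the venous-like sub-cluster, 11.5%, was 0% at resolution 0.3, where 33 of the 47 cells joined 50 of the cycling-led sub-cluster in 1 named for cycling, 18.2% with Eed iKO-D members only and 25% without possible doublets. The tip-like share, 15.6%, was 38.6% at resolution 0.3, where 81 of the 83 cells of sub-cluster 1 joined sub-cluster 3. It was 19.8% with 3000 variable genes. The cycling share, 13.9%, was 20.9% at resolution 0.3, 7.78% at 1.0, 6.70% with Eed iKO-D members only, 9.67% without possible doublets and 7.51% with 3000 variable genes. The share led by other cell types, 32.2%, was 0% without possible doublets, where a sub-cluster of 51 cells led by Cst6, Krt79 and Krt17 matched no list well enough to be named and so is not counted. The Esm1 share, 19.0%, was 14.2% thinned to 1000 UMIs, 34.3% unthinned, 23.6% at the higher threshold and 27.0% in the vessel sub-clusters, and reached 23.7% in the highest of 20 further draws. The restrictions to the vessel sub-clusters, to sub-cluster 2 and to sub-clusters 3 and 5 were chosen after seeing the data. So were the restriction to cells without UMIs of Ptprc or T cell genes, the scaling without ribosomal genes and the 20 or 700 UMI minimum. The 20 draws were chosen after it too. Apart from those built into an alternative, causes were not tested. The 25 Ctrl-D members limit all ratios.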
